A study of Mus musculus with 4 samples.

Results

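The hair follicle stem cell genes described here were 10 genes matched by symbol, Lgr5, Lgr6, Lrig1, Lhx2, Sox9, Cd34, Nfatc1, Fgf18, Tbx1 and Foxc1, of 25571 genes in the deposited table. Each symbol matched 1 Ensembl gene. RNA from mouse skin had been sequenced with 1 library for each of 4 treatments, named PRP-MNs, PRP, MNs and NC. PRP is platelet-rich plasma, the platelet concentrate of blood, and MNs are microneedles, short needles set in a patch that deliver a substance through the skin surface; PRP-MNs combines both. NC was not spelled out in the labels and was taken as the control. The sources used here do not give strain, age, sex, time of harvest, hair cycle stage or whether a library pooled several animals. The values were FPKM, fragment numbers corrected for the length of the transcript and the depth of the library. With 1 library per group no difference had a replicate check and no p-value was computed, so each value describes these libraries.

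The hair follicle keeps several pools of epithelial stem cells. The bulge, at the base of the permanent follicle, holds cells that stay at rest for most of the hair cycle. The hair germ beneath it is activated first when a new hair starts to grow. The isthmus and junctional zone above it maintain the upper follicle and the sebaceous gland. Lgr5 marks the lower bulge and hair germ, Lgr6 the isthmus, and Lrig1 the junctional zone. Lhx2, Sox9, Nfatc1, Tbx1 and Foxc1 encode transcription factors of bulge cells, CD34 is a surface protein of bulge cells in the mouse, and FGF18 is a signal of the resting follicle. Few of these genes belong to the follicle alone. Cd34 is also made by endothelium, dermal fibroblasts and mast cells, Foxc1 by vessels and mesenchyme, Nfatc1 by endothelium and leukocytes, Sox9 by cartilage and glands, and Lrig1 and Lgr6 by other epithelial cells.

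The main feature of the 10 genes was a high level in MNs. In MNs, 9 of them stood at their highest of the 4 libraries, where 28.6% of the 14475 genes that reached 1 FPKM in some library did so. The exception was Lgr6, which was highest in NC. A stricter count, chosen after the values were seen, took genes in MNs that were at least 2-fold above each of the other 3 libraries on the scale of FPKM + 1. It held 5 of the 10 genes (Lgr5, Lrig1, Lhx2, Sox9 and Tbx1) against 2.77% of all genes. Lgr5, Lhx2 and Tbx1 were under 1 FPKM in the other 3 libraries and reached the filter through MNs alone. For them being highest in MNs was fixed by the filter, so both counts are a description. In PRP-MNs, 6 of the 10 were at their lowest (28.9% of all genes), and 6 were under 1 FPKM, against 4 in PRP, 0 in MNs and 4 in NC.

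**Figure D1:**
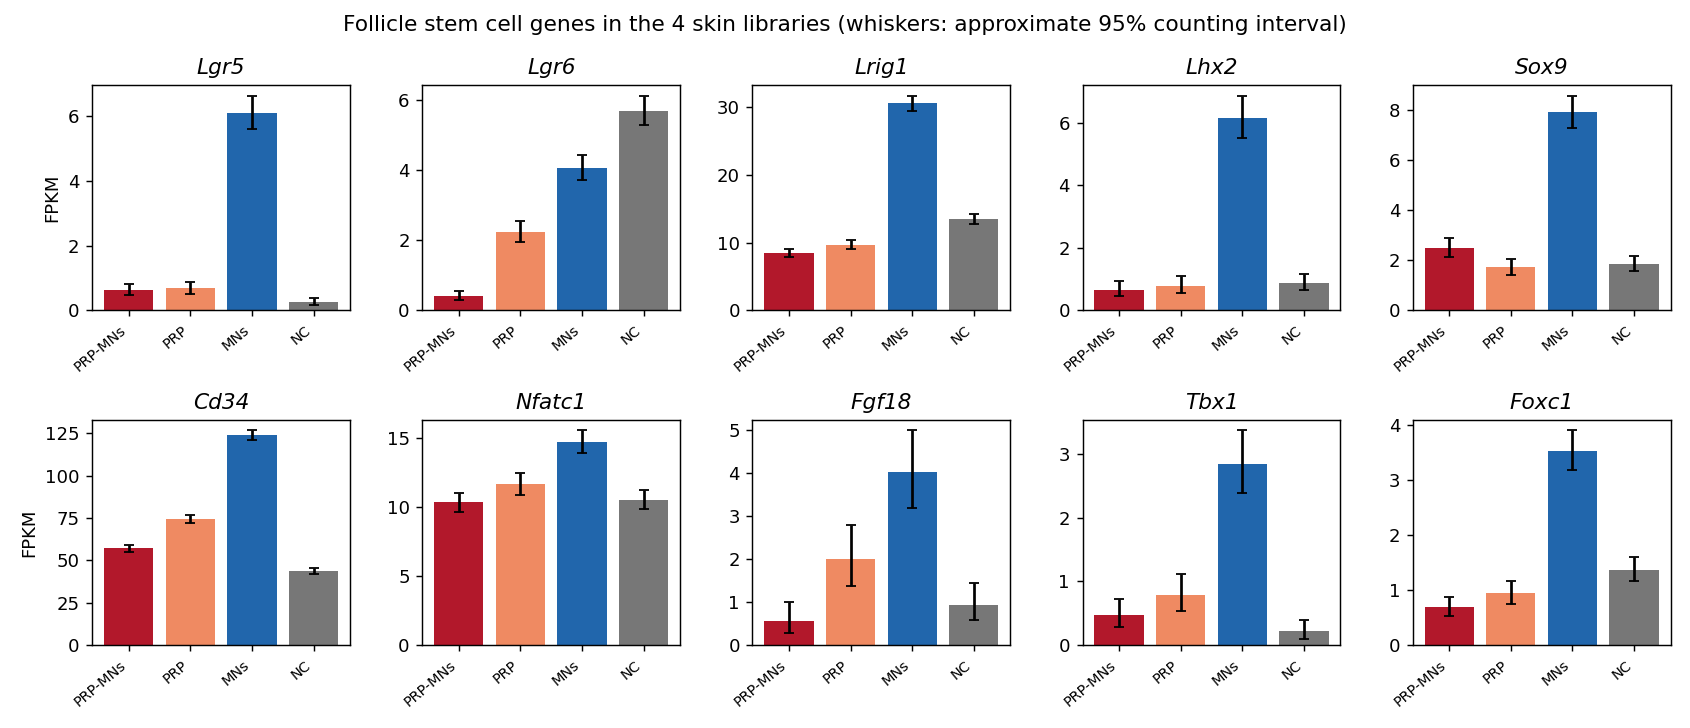
FPKM of each of the 10 genes in the PRP-MNs, PRP, MNs and NC libraries, 1 panel per gene with its own axis from 0. Whiskers are approximate 95% counting intervals and hold no variation between animals. MNs is the highest bar in 9 panels, and in the Lgr6 panel NC is highest at 5.69 FPKM.

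The upstream sequences of 3 genes are shown because they stand for the different patterns: Lgr6, which was highest in NC, and Lrig1 and Foxc1, which were highest in MNs. Each is the 250 bases before the gene's start in the RefSeq annotation of GRCm38.p6, written 5′ to 3′ on the gene's strand. For Lrig1 and Foxc1 that start lies 13 bases inside the GENCODE span given below, so their windows run into it. Capitals mark matches to the motifs searched.
Lgr6: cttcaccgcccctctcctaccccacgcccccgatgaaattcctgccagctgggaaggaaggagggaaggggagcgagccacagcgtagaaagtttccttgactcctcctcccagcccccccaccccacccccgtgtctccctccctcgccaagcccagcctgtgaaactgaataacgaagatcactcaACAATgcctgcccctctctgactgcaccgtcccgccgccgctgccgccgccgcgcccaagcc
Lrig1: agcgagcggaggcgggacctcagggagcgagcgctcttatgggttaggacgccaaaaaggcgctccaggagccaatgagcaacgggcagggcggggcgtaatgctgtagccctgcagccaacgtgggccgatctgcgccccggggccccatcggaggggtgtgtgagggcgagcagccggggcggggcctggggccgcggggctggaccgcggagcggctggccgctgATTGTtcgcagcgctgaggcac
Foxc1: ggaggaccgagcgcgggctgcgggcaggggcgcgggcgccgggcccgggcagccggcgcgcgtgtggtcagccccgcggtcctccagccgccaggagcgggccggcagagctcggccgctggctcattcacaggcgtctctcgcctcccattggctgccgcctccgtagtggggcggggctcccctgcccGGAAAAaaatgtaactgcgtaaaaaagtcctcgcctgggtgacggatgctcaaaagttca

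These windows lie at chr1:135105277-135105526 on the minus strand for Lgr6, chr6:94700146-94700395 on the minus strand for Lrig1 and chr13:31806396-31806645 on the plus strand for Foxc1. The table held 7 of the 10 genes. The letters searched, on both strands, were CTTTGA (TCF/LEF), TAATTA (LIM homeodomain), GGAAAA (NFAT), ACAAT (SOX), GTAAACA (forkhead) and GGTGTGA (T-box), none of which overlapped another in these windows. ACAAT was found for Lgr6, Lrig1 and Cd34 and occurs in 27.7% of all 32851 windows. GGAAAA was found for Foxc1 alone and occurs in 20.4%. The other 4 were not found in the 7 windows and occur in 13.8% (CTTTGA), 4.84% (TAATTA), 3.17% (GTAAACA) and 3.33% (GGTGTGA) of all windows. GC content was 65.2% for Lgr6, 71.6% for Lrig1 and 70.8% for Foxc1, against a median of 52.4% over all windows. Among the windows not shown it was 46.4% for Cd34, 54.4% for Tbx1, 72.8% for Lhx2 and 77.2% for Fgf18. A match describes these letters only and is not a binding site.

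Steps between low values placed the depth at 15.9 M fragments (PRP) to 19.4 M (NC), with PRP-MNs at 17.3 M and MNs at 18.6 M. Steps of about 2 times this depth matched more of the low values, so depth and fragment numbers may be understated by that factor. At this depth 3 fragments on a transcript of 1 kb correspond to 0.155 to 0.189 FPKM, a floor that covers counting error only. Mitochondrially encoded genes took 10.9% to 15.5% of the FPKM sums. The basal keratins Krt5 and Krt14 were abundant in every library, Krt5 between 689 and 2348 FPKM, as the skin label implies. The skeletal muscle gene Acta1 was at 2873 to 4958 FPKM, so muscle beneath the skin was also present. Leukocyte markers differed widely, summing to 741 FPKM with PRP-MNs, 202 with PRP, 262 with MNs and 49.9 in NC. Of these 8 markers, 7 were highest in PRP-MNs and 1, a T cell marker, was highest in NC.

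On GRCm38, with GENCODE M21 spans, Lgr5 (ENSMUSG00000020140) lies on chromosome 10 from 115450311 to 115587780 and Lgr6 (ENSMUSG00000042793) on chromosome 1 from 134983301 to 135105276. Lrig1 (ENSMUSG00000030029) lies on chromosome 6 from 94604529 to 94700158. Lhx2 (ENSMUSG00000000247) lies on chromosome 2 from 38339281 to 38369733 and Sox9 (ENSMUSG00000000567) on chromosome 11 from 112782224 to 112787760. Cd34 (ENSMUSG00000016494) lies on chromosome 1 from 194938819 to 194961279. Fgf18 (ENSMUSG00000057967) lies on chromosome 11 from 33117430 to 33147400, Tbx1 (ENSMUSG00000009097) on chromosome 16 from 18580979 to 18590671 and Foxc1 (ENSMUSG00000050295) on chromosome 13 from 31806633 to 31812476. The deposited values are per gene, so transcripts of a gene cannot be told apart.

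Lgr5 and Lgr6 encode receptors of R-spondins, secreted proteins that strengthen Wnt signalling. Lgr5 was at 0.629 FPKM with PRP-MNs, 0.679 with PRP, 6.10 with MNs and 0.270 in NC. MNs stood apart from the 3 low libraries. The level in MNs was 22.6 times that in NC, about 544 against 25 fragments, and 8.99 times that in PRP. By counting error alone the ratio of MNs to NC lay between 15.2 and 35.3. PRP-MNs and PRP could not be told apart for Lgr5 (ratio 0.926, 0.613 to 1.38). Both were above NC, PRP-MNs by 2.33 times (1.42 to 3.92) and PRP by 2.52 times (1.55 to 4.27). Fragment numbers are approximate, from the estimated depth and the longest annotated transcript, and these intervals cover 95% of counting error and nothing else. Because the libraries are of whole skin, fewer cells of a type and less RNA per cell cannot be told apart.

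Lgr6 had a different order. It was at 0.416 FPKM with PRP-MNs, 2.23 with PRP, 4.06 with MNs and 5.69 in NC. Each treated library was below NC, and PRP-MNs was lowest. Markers of differentiating keratinocytes, the cells of the upper epidermis, moved with Lgr6 at these ends: all 6 were highest in NC and lowest in PRP-MNs. Their median log2 difference from NC was -3.74 in PRP-MNs, -0.87 in PRP and -2.61 in MNs. In the same order, the number of them at least 2-fold lower was 6, 2 and 6, against 11.5%, 1.46% and 7.12% of all genes. Unlike Lgr6 they were lower in MNs than in PRP, and their part in the level of Lgr6 was not tested. PRP-MNs was 13.7-fold lower than NC (counting interval 10.2 to 18.7), PRP 2.55-fold lower (2.20 to 2.96) and MNs 1.40-fold lower (1.25 to 1.57). Lgr6 also differed from Lgr5 in what set PRP-MNs against PRP. It was 5.36-fold lower in PRP-MNs than in PRP, against an Lgr5 ratio near 1. Both receptors were lower in PRP-MNs than in MNs, Lgr5 by 9.71-fold and Lgr6 by 9.77-fold.

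Lrig1 encodes a membrane protein that restrains EGF receptor family signalling and keeps stem cells at rest. It stood at 8.46 FPKM with PRP-MNs, 9.70 with PRP, 30.5 with MNs and 13.4 in NC. MNs was 2.27 times NC, whereas PRP-MNs and PRP were below NC, by 1.59-fold and 1.38-fold. The 3′ end of Lrig1 overlaps that of Slc25a26, a mitochondrial carrier gene on the opposite strand, and the sources used here do not say whether strands were kept apart. Slc25a26 was between 3.92 FPKM in PRP and 5.87 FPKM in MNs.

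Among the transcription factors, Lhx2 and Sox9 were low outside MNs. Lhx2, which keeps bulge cells from activation, was at 0.663 FPKM with PRP-MNs, 0.787 with PRP, 6.17 with MNs and 0.894 in NC. The 3 low libraries lay within counting error of each other for neighbouring values (NC over PRP 1.14, 0.729 to 1.82), and MNs was 6.90 times NC (5.12 to 9.55). Sox9, which early follicle stem cells need, was at 2.51 FPKM with PRP-MNs, 1.72 with PRP, 7.93 with MNs and 1.86 in NC. MNs was 4.27 times NC. PRP-MNs was 1.35 times NC for Sox9 (1.08 to 1.69), and PRP and NC were within counting error. Other cells also make Sox9. None of 5 chondrocyte markers reached 1 FPKM in any library, and Col2a1, the main cartilage collagen, was listed at 0 in all 4. All 8 markers of the sebaceous gland were highest in MNs, as Sox9 was, and their part in its level was not tested.

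Tbx1 and Foxc1 were the lower of the factors in MNs. Tbx1, which supports self-renewal of bulge cells in mice, was at 0.467 FPKM with PRP-MNs, 0.785 with PRP, 2.84 with MNs and 0.216 in NC. In NC this was about 10 fragments, and the ratio of MNs to NC, 13.2, had a counting interval of 7.30 to 29.5. Foxc1, which keeps activated stem cells able to return to rest, was at 0.688 FPKM with PRP-MNs, 0.941 with PRP, 3.52 with MNs and 1.36 in NC. MNs was 2.58 times NC for Foxc1, which on the scale of FPKM + 1 was a log2 difference of 0.94, just under the 2-fold line. PRP-MNs was 1.98-fold lower than NC (1.49 to 2.68).

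Nfatc1, a calcium-regulated factor that holds bulge cells at rest, varied least of the 10. It was at 10.3 FPKM with PRP-MNs, 11.7 with PRP, 14.7 with MNs and 10.5 in NC. MNs was 1.40 times NC, and PRP-MNs and NC were within counting error (ratio 0.982, 0.895 to 1.08). Of 8 listed NFAT and calcineurin pathway genes, 0 differed 2-fold between PRP-MNs and NC on the scale of FPKM + 1. Of all genes tested, 17.6% were higher and 11.5% lower. The catalytic subunit gene Ppp3cc came nearest, with a log2 difference of 0.90 on that scale and a plain FPKM ratio of 2.26, at 5.06 FPKM with PRP-MNs, 4.85 with PRP, 5.27 with MNs and 2.24 in NC.

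Fgf18 was at 0.565 FPKM with PRP-MNs, 2.0 with PRP, 4.02 with MNs and 0.941 in NC. It was the member with fewest fragments in PRP-MNs, about 11, and PRP-MNs and NC were within counting error (ratio 0.601, 0.267 to 1.35). PRP was 2.12 times NC (1.16 to 3.80) and MNs 4.27 times NC (2.56 to 7.26). PRP was thus above NC, and PRP-MNs was 7.11-fold lower than MNs. Of 4 receptors of FGF ligands, Fgfr4 had the order of Fgf18 over a narrower span, at 1.25 FPKM with PRP-MNs, 1.78 with PRP, 2.01 with MNs and 1.63 in NC. Fgfr2 and Fgfr3 were highest in NC and lowest in PRP-MNs, whereas Fgfr1 was highest in MNs and lowest in NC. Fgfr3, which FGF18 activates, was at 7.81 FPKM with PRP-MNs, 24.0 with PRP, 12.3 with MNs and 33.7 in NC. Fgfr2 was at 3.88 FPKM with PRP-MNs, 18.2 with PRP, 21.0 with MNs and 30.8 in NC, and Fgfr1 at 21.5, 16.2, 36.0 and 10.9 FPKM in the same order.

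Cd34 had by far the highest level of the 10. It was at 57.3 FPKM with PRP-MNs, 74.5 with PRP, 123.8 with MNs and 43.7 in NC. It was above NC in each treated library, by 1.31, 1.70 and 2.83 times in PRP-MNs, PRP and MNs. An annotated antisense gene, Gm16897, overlaps exons of Cd34. The other cells that make CD34 also differed between libraries. Past 2-fold, all 9 endothelial markers stood above NC in PRP-MNs (median log2 difference 2.65) and all 9 in MNs (1.90), with Pecam1, an adhesion gene of endothelium, at 79.1 FPKM with PRP-MNs, 21.9 with PRP, 46.5 with MNs and 6.83 in NC. Of 8 fibroblast markers, 1 was at least 2-fold higher in PRP-MNs (Pdgfra) and 1 lower (Pi16). In PRP 5 were higher and in MNs 7, and the list medians were 0.11, 1.07 and 2.92 in PRP-MNs, PRP and MNs. Of 7 mast cell markers, 6 were at least 2-fold higher in MNs. Over all genes tested, 17.6% were higher in PRP-MNs, 7.78% in PRP and 15.7% in MNs, and 11.5% were lower in PRP-MNs. The summed level of the fibroblast markers was 1051 FPKM with PRP-MNs, 2002 with PRP, 7454 with MNs and 993.1 in NC. Their part in the level of Cd34 was not tested.

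The comparison of MNs with NC concerned microneedles without PRP. By 2-fold or more, 7 of the 10 genes were higher and 0 were lower on the scale of FPKM + 1, where 15.7% of 13925 genes tested were higher and 7.12% lower. Testing required 1 FPKM or more in either library. All 10 passed, but Lgr5, Lhx2, Fgf18 and Tbx1 did so through MNs alone, so they could only be higher in MNs or little changed, and the count is a description. The largest log2 differences were 2.48 for Lgr5, 1.92 for Lhx2, 1.66 for Tbx1 and 1.64 for Sox9. The median of the 10 was 1.43, beside 0.16 over all genes tested. Of the 10, 9 were higher by any amount, against 60.1% of all genes above 0. Rescaling every library to the same FPKM sum raised the median of all genes to 0.34, and Foxc1 then passed the 2-fold line. Centring on the median of all genes left 6 of the 10 at least 2-fold higher, with Lrig1 just under the line, and gave 1729 genes higher and 1261 lower in place of 2188 and 991.

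**Figure D2:**
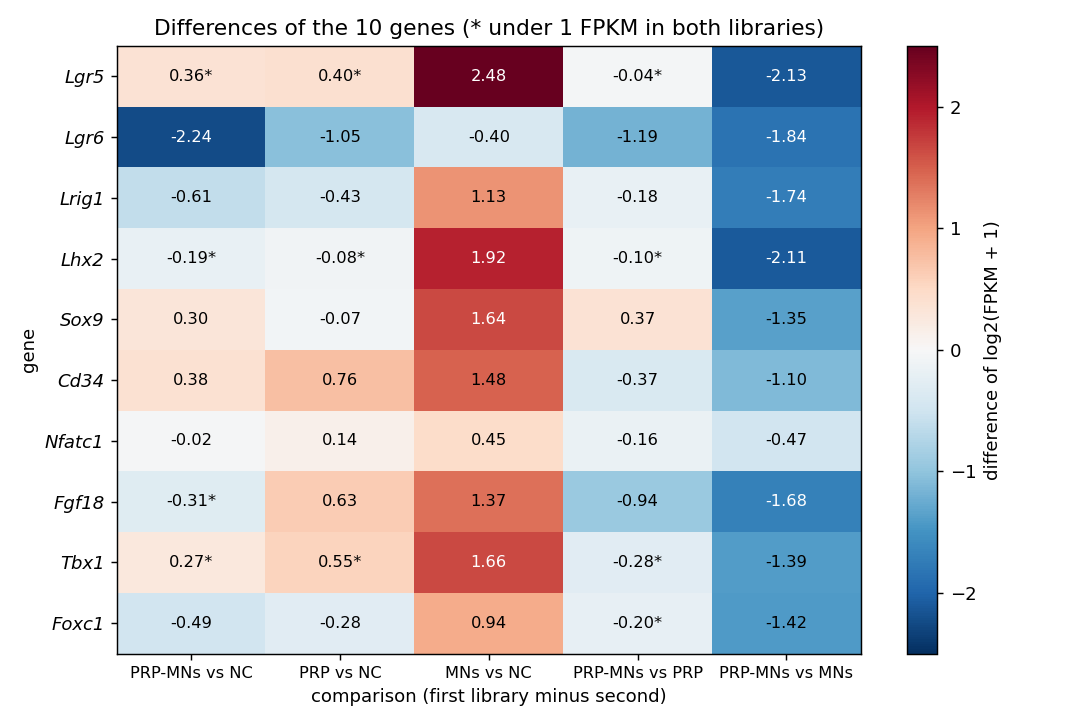
Differences of log2(FPKM + 1), first library minus second, for each gene in the 5 comparisons, with red for positive and blue for negative values. The MNs minus NC column holds 9 positive values up to 2.48, and all 10 values of PRP-MNs minus MNs are negative.

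The comparison of PRP-MNs with NC concerned the combined treatment. Of the 10 genes, only Lgr6 differed at least 2-fold on the scale of FPKM + 1, at -2.24, and 0 were higher. Of all 13981 genes tested 17.6% were higher and 11.5% lower. The filter kept 6 of the 10, Lgr6 and Foxc1 through NC alone. Lgr5, Lhx2, Fgf18 and Tbx1 were under 1 FPKM in both libraries. As plain FPKM, Lgr5 was 2.33 times NC (1.42 to 3.92) and Tbx1 2.16 times (1 to 5.36), and Lgr6 alone was lower past 2-fold. By any amount, 4 of 10 genes were higher in PRP-MNs (57.2% of all genes), and 3 were within counting error.

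The comparison of PRP with NC concerned PRP given without microneedles. On the scale of FPKM + 1, Lgr6 was again the only one of the 10 past 2-fold, at -1.05, and 0 were higher. Here 7.78% of 13533 genes were higher and 1.46% lower, and 7 of the 10 were tested. Lgr5, Lhx2 and Tbx1 were under 1 FPKM in both libraries. As plain FPKM, Lgr5 was 2.52 times NC (1.55 to 4.27), Tbx1 3.64 times (1.81 to 8.65) and Fgf18 2.12 times (1.16 to 3.80). Lgr6 alone was lower past 2-fold as plain FPKM. Without mitochondrial genes in the scaling Lgr6 no longer reached 2-fold. The next values were 0.76 for Cd34 and 0.63 for Fgf18. By any amount, 5 of 10 were higher, against 53.7% of all genes.

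PRP-MNs and MNs shared the microneedles and differed in PRP. Past 2-fold, 9 of the 10 genes were lower in PRP-MNs and 0 were higher, where 7.39% of 13933 genes were lower and 7.16% higher. Their log2 differences ran from -2.13 for Lgr5 to -1.10 for Cd34, and Nfatc1 was at -0.47. Of these 9, 6 passed the filter through MNs alone and so could not have been much lower in MNs. Lrig1 (-1.74), Sox9 (-1.35) and Cd34 (-1.10) were above 1 FPKM in both. All 10 were lower by any amount, where 48.7% of all genes were higher. This comparison shares MNs with that of MNs against NC, so both rest on the same high library.

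PRP-MNs and PRP shared the plasma and differed in the microneedles. On the scale of FPKM + 1, Lgr6 was the only gene at least 2-fold lower, at -1.19, and 0 were higher. Of 13861 genes tested, 7.50% were lower and 9.54% higher. Lgr6 passed the filter through PRP alone. Fgf18 was next at -0.94 and passed 2-fold once differences were centred on the median of all genes. As plain FPKM it was 3.53-fold lower (1.66 to 7.36). Sox9 was the 1 gene higher by any amount, at 0.37, against 55.4% of all genes.

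**Figure D3:**
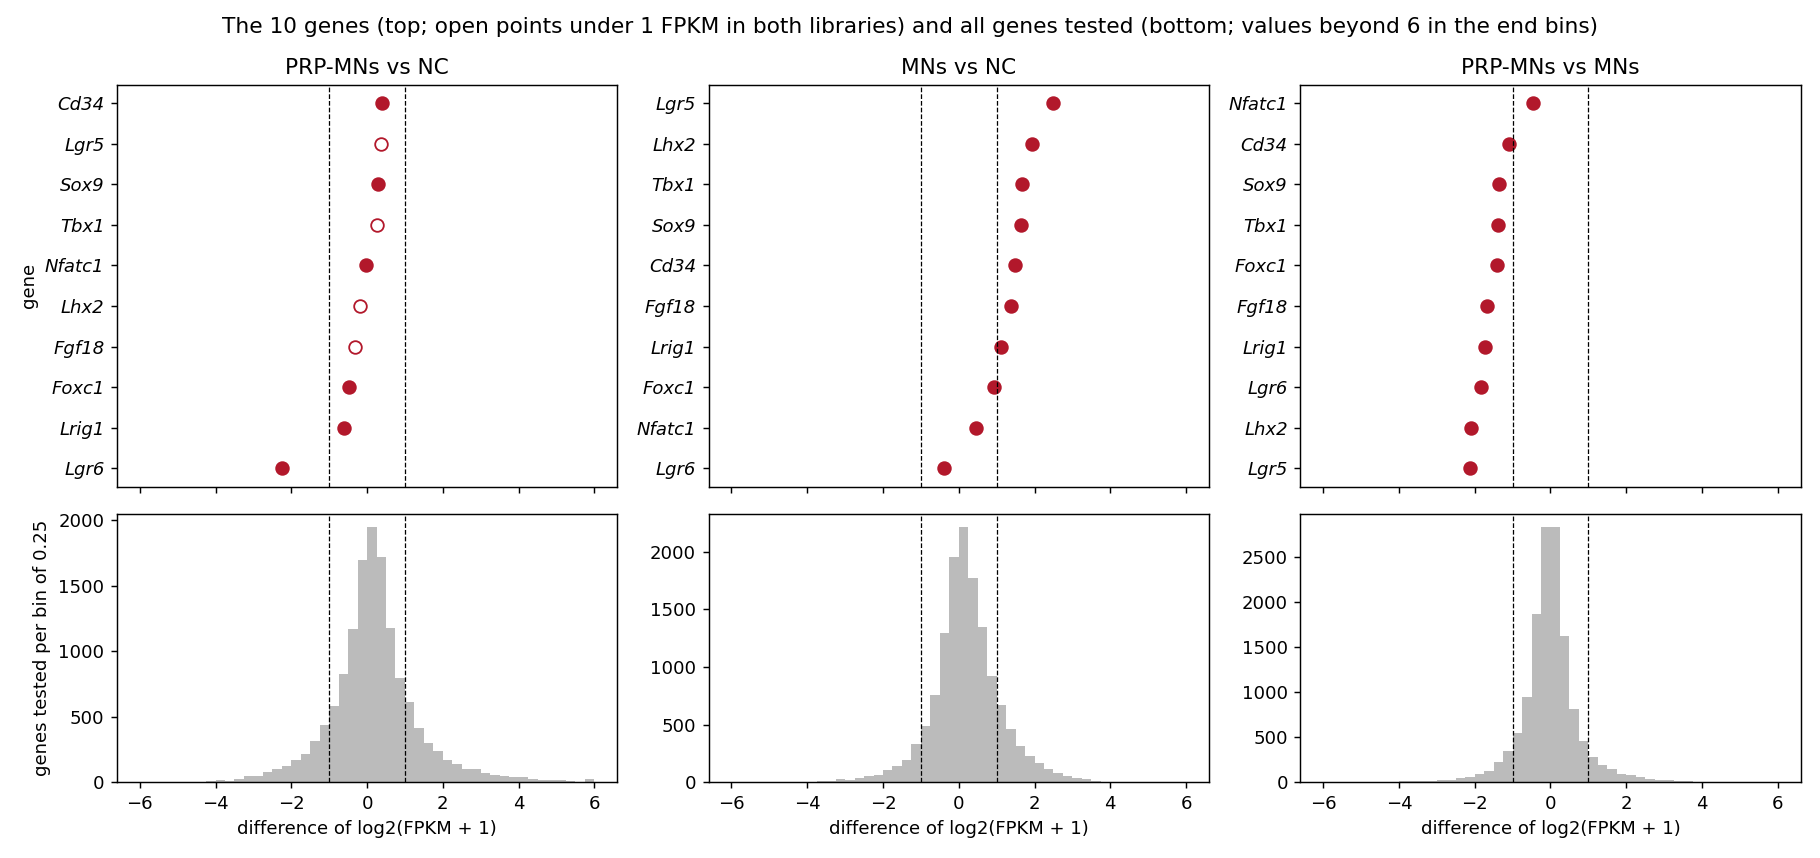
Top, difference of log2(FPKM + 1) of each of the 10 genes in PRP-MNs minus NC, MNs minus NC and PRP-MNs minus MNs. Bottom, the number of all tested genes in bins of the same scale, with dashed lines at 2-fold. In MNs minus NC, 7 genes lie right of the upper line, and in PRP-MNs minus MNs 9 lie left of the lower line.

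Within each gene, libraries were put in order and neighbours compared by counting error. Of 30 neighbouring pairs, 22 had an interval that left out a ratio of 1 and 8 did not. MNs was outside the interval of its neighbour for all 10 genes. The 8 unresolved pairs were all among PRP-MNs, PRP and NC.

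A separate list of 17 other bulge, hair germ and isthmus genes was read beside the 10. In MNs, 6 of 16 tested were at least 2-fold higher than in NC (15.7% of all genes) and 1 lower (7.12%), with a median of 0.79. In PRP-MNs, 3 of 14 were higher than in NC (17.6% of all genes) and 5 lower (11.5%), with a median of -0.25. Krt15, a keratin of bulge and basal cells, was at 12.6 FPKM with PRP-MNs, 63.0 with PRP, 313 with MNs and 78.3 in NC. Krt79, a keratin of the upper follicle duct and sebaceous gland, was at 10.6 FPKM with PRP-MNs, 77.1 with PRP, 565 with MNs and 101 in NC. These keratins shared with most of the 10 genes the high value in MNs, but their low value in PRP-MNs was several times under NC, which of the 10 was seen for Lgr6. Runx1, a factor of hair germ activation that leukocytes also make, was highest in PRP-MNs, at 25.6 FPKM, against 3.80 FPKM with PRP, 8.26 with MNs and 1.83 in NC. Col17a1, the hemidesmosome collagen that holds stem cells to the basement membrane, was at 47.6 FPKM with PRP-MNs, 120.5 with PRP, 93.1 with MNs and 154 in NC.

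In R-spondin signalling, the pathway of LGR5 and LGR6, 3 of 7 genes tested lay below NC in PRP-MNs by 2-fold or more, as did 11.5% of all genes. Of the 7, 4 had passed through NC alone, and none of the 8 in the list was higher in PRP-MNs by any amount. In MNs 1 of 7 was at least 2-fold higher than in NC (15.7% of all genes). That was Rspo1, a ligand, at 0.283 FPKM with PRP-MNs, 1.03 with PRP, 5.84 with MNs and 1.66 in NC. The ubiquitin ligase Znrf3, which removes Wnt receptors and is itself checked by R-spondins, was at 1.49 FPKM with PRP-MNs, 3.20 with PRP, 3.07 with MNs and 4.29 in NC. Its relative Rnf43 was at 0.460, 1.66, 2.47 and 2.61 FPKM in the same order. Lgr4, the third receptor of the family, named here after its values were seen, was at 4.0 FPKM with PRP-MNs, 5.33 with PRP, 10.4 with MNs and 5.12 in NC.

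LRIG1 restrains the receptors of the EGF family. Erbb3 was at 7.64 FPKM with PRP-MNs, 20.5 with PRP, 14.4 with MNs and 27.3 in NC, and Erbb2 at 9.61, 19.7, 15.2 and 27.9 FPKM in that order. Both were highest in NC. Egfr was at 11.4 FPKM with PRP-MNs, 10.3 with PRP, 15.6 with MNs and 8.71 in NC. The list held 5 cell surface targets of LRIG1. Erbb4 was under 1 FPKM in all 4 libraries and was not tested. Met, a further target, was highest in PRP-MNs, at 13.1 FPKM against 7.54 FPKM in NC. Of the 4 tested (Egfr, Erbb2, Erbb3 and Met), 2 were lower past 2-fold in PRP-MNs than in NC (11.5% of all genes). In PRP-MNs 0 of 4 were higher by as much (17.6% of all genes). In MNs 0 of 4 differed 2-fold from NC, where 15.7% of all genes were higher and 7.12% lower.

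BMP signals hold bulge cells at rest. Of 9 genes of this list, 2 exceeded NC at least 2-fold in PRP-MNs (17.6% of all genes did), 1 was lower (11.5%), and 2 were higher in MNs (15.7%). These counts lie near the shares over all genes. The activin and BMP antagonist Fst was at 27.1 FPKM with PRP-MNs, 8.86 with PRP, 29.3 with MNs and 5.49 in NC. Id2, a BMP target that many cells use, was at 34.2 FPKM with PRP-MNs, 14.5 with PRP, 26.4 with MNs and 7.21 in NC. Bmp4 was lowest in PRP-MNs, at 2.37 FPKM against 5.96 FPKM in NC.

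Relatives of Cd34, Sox9 and Lrig1 were read beside them. Podxl, a relative of Cd34 in endothelium, was at 16.0 FPKM with PRP-MNs, 5.46 with PRP, 13.5 with MNs and 1.54 in NC. Unlike Cd34 it was highest in PRP-MNs. Sox10, a relative of Sox9 in Schwann cells and melanocytes, was at 2.62 FPKM with PRP-MNs, 1.05 with PRP, 2.51 with MNs and 0.207 in NC. Lrig3 was at 1.75 FPKM with PRP-MNs, 4.34 with PRP, 7.55 with MNs and 5.67 in NC, lowest in PRP-MNs and highest in MNs as Lrig1 was.

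The high values in MNs were not particular to stem cell genes by these counts. All 8 sebaceous gland markers, all 8 fibroblast markers, all 7 mast cell markers, all 5 melanocyte markers and 7 of 9 markers of the growing hair bulb were also highest in MNs. These counts had no filter, whereas 28.6% of genes that reached 1 FPKM in some library were highest there. In MNs only 4 of the 9 hair bulb markers reached 1 FPKM. Other lists differed: MNs was highest for 3 of 9 endothelial, 0 of 8 leukocyte, 0 of 5 skeletal muscle and 0 of 6 differentiating keratinocyte markers. Far2, a wax synthesis gene of the sebaceous gland, was at 1.23 FPKM with PRP-MNs, 21.9 with PRP, 249 with MNs and 22.5 in NC. Krt71, a keratin of the inner root sheath of growing hairs, was listed at 0 in PRP-MNs and was at 0.185 FPKM with PRP, 9.52 with MNs and 2.15 in NC. The summed level of the hair bulb markers was 2.09 FPKM with PRP-MNs, 3.58 with PRP, 24.1 with MNs and 9.32 in NC. Basal keratinocyte markers did not share the high values in MNs, with a median log2 difference of -0.47 between MNs and NC and -1.24 between PRP-MNs and NC. The part of these cells in the levels of the 10 genes was not tested.

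**Figure D4:**
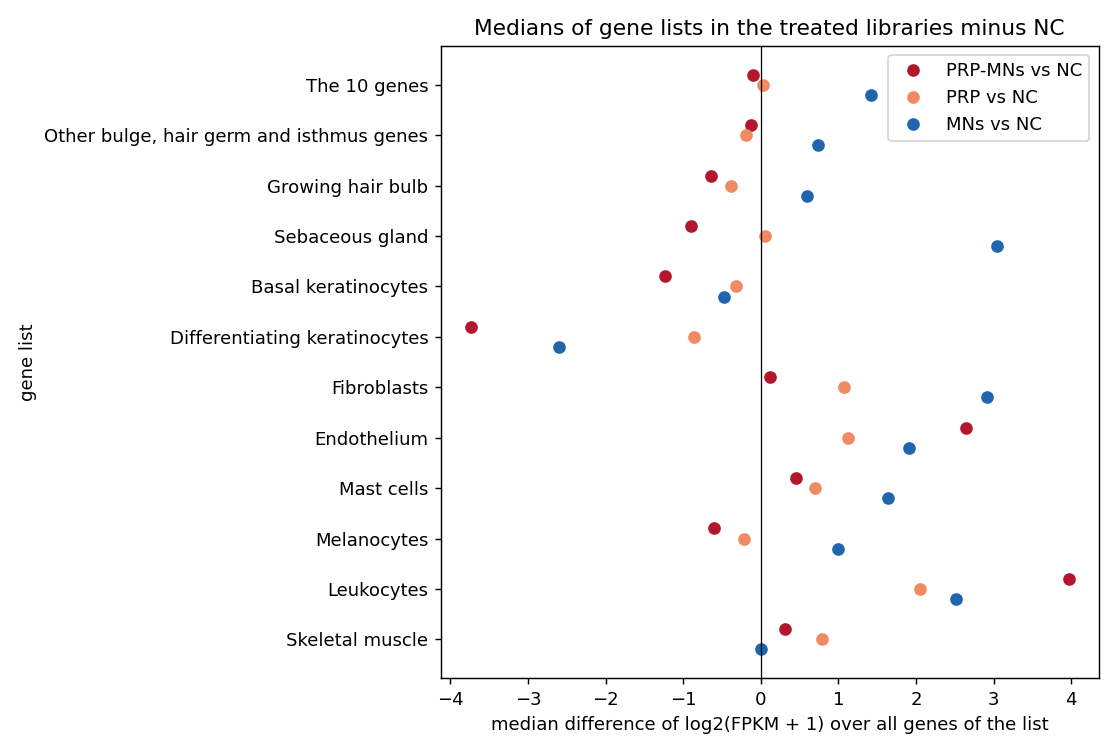
Median difference of log2(FPKM + 1) from NC over all genes of each list, for PRP-MNs, PRP and MNs. In MNs the median of the 10 genes (1.43) lies below those of sebaceous gland (3.05), fibroblast (2.92) and endothelial (1.90) markers and above that of basal keratinocyte markers (-0.47).

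Levels were then set against the markers of other cells in the same library, a step chosen after the values were seen. In this paragraph and the next, each of the 10 genes entered as plain FPKM, with no filter and no pseudocount. The marker level it was divided by was the mean of log2(FPKM + 1) over the list. The resulting log2 ratios are therefore not on the scale of FPKM + 1 used above. No share over all genes was computed for these ratios, so the counts are a description. In MNs against NC, 8 of the 10 genes exceeded NC by 2-fold or more relative to 6 basal keratinocyte markers and 0 were below NC by as much (median 2.23). Relative to sebaceous gland markers 1 was higher and 5 were lower (median -0.95), relative to fibroblast markers 2 and 5 (median -0.77), and relative to endothelial markers 2 and 2 (median -0.20). The sign of the median in MNs thus differed between the cell types that the genes were set against. All genes were rescaled on basal keratinocyte markers only, on the scale of FPKM + 1 after the filter. At 2-fold, 3371 of 13759 genes tested were then higher in MNs than in NC and 549 lower.

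PRP-MNs against NC also depended on the cell type. Relative to basal keratinocyte markers, which themselves were lower in PRP-MNs by a log2 difference of -1.15, 5 genes stood above NC by 2-fold or more and 1 below it (Lgr6, -2.62), with a median of 0.92. Sebaceous gland markers gave 5 higher and 1 lower (median 0.82), fibroblast markers 1 and 2 (median -0.41), and endothelial markers 0 and 10 (median -2.63). For PRP-MNs against MNs, 7 genes were at least 2-fold lower relative to basal keratinocyte markers (median -1.76) and 9 relative to endothelial markers (median -2.89). Relative to sebaceous gland markers the direction turned: all 10 were above 0, 6 of them by 2-fold or more in PRP-MNs (median 1.31). Relative to fibroblast markers 2 were higher and 0 lower by 2-fold, with 5 of 10 above 0 (median -0.09). Between PRP-MNs and NC, sebaceous gland, fibroblast and endothelial markers themselves differed by -1.04, 0.18 and 2.41 in log2. Between PRP-MNs and MNs they differed by -3.79, -2.39 and 0.41, and basal keratinocyte markers by -0.72. These shifts move every gene alike, so the counts depend on the reference as well as on the 10 genes.

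The genes with the nearest pattern over the 4 libraries were sought for the 9 members whose level spanned at least 2-fold. The measure was the largest difference between centred log2(FPKM + 1) profiles, among 1596 to 9243 genes of like mean level. The nearest to Lgr5 was Mettl7b, with a largest difference of 0.13, followed by Acsm3 (0.24). Mettl7b was at 0.431 FPKM with PRP-MNs, 0.635 with PRP, 4.97 with MNs and 0.263 in NC. Lgr6 was nearest to Liph (0.13) and Arhgef19 (0.16). Lrig1 was nearest to Lss (0.11) and Acp6 (0.11), Sox9 to Acsf2 (0.16) and Tcaf2 (0.20), and Cd34 to Gpd1 (0.10) and Cbr2 (0.13). Foxc1 was nearest to Cd209c (0.03) and to Gata6 (0.04), a factor of the upper follicle and sebaceous duct that stood at 0.477 FPKM with PRP-MNs, 0.655 with PRP, 2.92 with MNs and 0.971 in NC. Lhx2 was nearest to Pdzk1 (0.09) and Kera (0.10), Fgf18 to Creb3l3 (0.07) and Hmcn2 (0.13), and Tbx1 to Acaa1b (0.07) and Prrx2 (0.13). With 4 libraries many genes can lie this near.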

How the data were processed

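The values analysed are FPKM in a single gene table that the authors deposited, and its 4 columns were matched to samples by their treatment names. Per the submitters' processing notes, reads were placed on GRCm38. RNA, 1 μg per library, was made into libraries with the NEBNext Ultra kit, per the labels' protocols. The sources used here name no aligner, quantification tool, annotation or strand setting. Of 25571 identifiers, 22022 matched GENCODE M21.

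Differences were of log2(FPKM + 1), the first library minus the second, a scale that shrinks differences between low values. Testing required 1 FPKM or more in either library, and differences of 2-fold or more were counted. With 1 library per group there was no test of significance. The members and lists were chosen with earlier results of these data known. Beside the 10 genes, up to 4 genes per list with the largest difference between PRP-MNs and NC could be named, with 2 nearest patterns per member. Depth was the step, between 8 and 25 M, at which most low values of genes with a single transcript lay within 0.02 of whole fragments (23.3% to 27.1% of them, against medians of 3.14% to 3.35% over all steps searched). A search up to 45 M placed the best step at 31.8 to 38.7 M, about 2 times that depth, where 31.0% to 37.2% of low values lay within the tolerance. The range up to 25 M was set after seeing this. The lower depth was used, which gives the wider intervals, so true fragment numbers may be about 2 times those given. Since most values did not give whole fragments, no count model was run. Fragment numbers are therefore approximate, and their intervals are exact Poisson intervals, or exact binomial (Clopper-Pearson) intervals for ratios, at 95%. The counting code was run on simulated data that held increases only. That run checked the code, and it covers no decreases, no genes at low levels and no variation between animals. Alternatives were other pseudocounts, filters, scalings and centring. Python 3.11.15, pandas 2.3.3 and scipy 1.17.1 were used.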

Additional observations from a re-analysis of the deposited data

Results flagged for a closer look

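Cd34 and Fgf18 differed in opposite directions where PRP was set against no PRP without and with microneedles, by at least 1.5-fold each way. For Cd34 the log2 difference was 0.76 for PRP minus NC and -1.10 for PRP-MNs minus MNs. For Fgf18 it was 0.63 for PRP minus NC and -1.68 for PRP-MNs minus MNs. The difference between the 2 contrasts was not tested, since each rests on 1 library per group. Of 14475 genes that reached 1 FPKM in some library, 388 (2.68%) met the same criterion.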

How the results depend on the processing

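Of 258 single-gene values recomputed under the alternatives, 248 kept their sign, and none of the differences past 2-fold changed sign. Counts of members at least 2-fold different moved as follows. PRP against NC had 2 with a pseudocount of 0.1 (Fgf18 joined Lgr6) and 0 without mitochondrial genes in the scaling, in place of 1. PRP-MNs against PRP had 2 with a pseudocount of 0.1 and 2 after centring, and 0 with a filter at 5 FPKM, which leaves out Lgr6, in place of 1. PRP-MNs against MNs had 5 with a filter at 5 FPKM, which tests 6 genes, in place of 9. Rescaled on basal keratinocyte markers, chosen after seeing the data, PRP-MNs against NC had 4 in place of 1, 3 of them higher (on the scale of FPKM + 1, after the filter). That was 4 of 8 members tested. Over all genes, 8335 of 14580 tested were then higher and 569 lower, so the rise is not particular to the members. Under that scaling Lgr6 was no longer past 2-fold in PRP against NC (-0.80) or PRP-MNs against PRP (-0.84); the 1 gene called was instead higher, Cd34 (1.02) and Sox9 (1.02). PRP-MNs against MNs had 7 lower in place of 9, where 509 of 14645 genes tested were lower and 3314 higher. The median of all genes moved to 1.12, 0.27, 0.53, 0.85 and 0.63, and the scaling put the share of higher among all called genes at 93.6%, 95.8%, 86.0%, 93.8% and 86.7% in the 5 comparisons (PRP-MNs, PRP and MNs each minus NC, then PRP-MNs minus PRP and minus MNs), in place of 60.5%, 84.2%, 68.8%, 56.0% and 49.2%. No replicate could be left out, with 1 library per group. No paired analysis was possible because each group had 1 library. Depth limits Tbx1, Fgf18 and Lgr5 most, with about 10, 20 and 25 fragments in NC.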
